A study of Mus musculus with 2 samples.

Results

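The immunoglobulin heavy chain locus, Igh, of mouse chromosome 12 held 50 of the 53593 DNaseI-accessible sites listed for lymphoma T6. The members were all sites that overlap 114440000 to 117250000 of chromosome 12 in the mm9 genome, a span of 2.81 Mb. It was chosen by position and not by any measured value, though earlier results of these data were known. The span was divided by position into a 3′ regulatory region (114440000 to 114500000), the constant genes (114500000 to 114657000), a short part from Ighm over the Eμ enhancer to the J segments (114657000 to 114670000), and the D and V segments (114670000 to 117250000). A site was put in the subpart that holds its midpoint. This gave 9, 6, 1 and 34 sites in that order.

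T6 is an untreated Eμ-myc lymphoma, genotype Arf-/- Trp53+/+, from a mouse of strain C57/Bl6. In Eμ-myc mice a transgene places the Myc oncogene under the Eμ enhancer of Igh, which acts in B lineage cells. Arf restrains Mdm2 and thereby protects p53; the tumour lacked Arf and kept wild-type Trp53. The cells are labelled as B cells and were pressed from lymph nodes without purification, and cells of other types may be among them. The enzyme DNaseI cuts chromatin best where nucleosomes leave DNA exposed, and the list names stretches rich in such cuts as sites. Only the DNaseI library's list was used, 1 library without a replicate; the input library of the same tumour was not analysed here. The list gives a chromosome, a start and an end per site, so depth and signal are unknown and width is the only measure of size. Whether the cells carry B cell markers could not be read from the list without an mm9 annotation and was not checked. All intervals are 95% intervals for counting error only, and no test between groups was possible.

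B cells assemble an antibody heavy chain by joining 1 V, 1 D and 1 J segment of Igh on the 5′ side of the constant genes. Ighm encodes the constant part of the IgM heavy chain, the first made. Ighd is expressed along with it by alternative splicing, and the remaining constant genes replace Ighm when a B cell switches class. The Eμ enhancer sits in the intron between the J segments and Ighm, next to the repetitive switch region of Ighm. A second group of enhancers, the 3′ regulatory region, lies beyond the last constant gene and is known for its part in class switching and in high heavy chain output of activated B cells. Names and their order were taken from RefSeq's genes of a different assembly, GRCm38.p6, and none of its positions was used. It lists the constant genes in the order Igha, Ighe, Ighg2c, Ighg2b, Ighg1, Ighg3, Ighd and Ighm, followed by 4 J segments, 20 D segments and 183 V segments, of which 63 are pseudogenes. Coordinates on chromosome 12 rise from the 3′ regulatory region towards the V segments. No mm9 sequence or annotation was used here, so no sequence is shown and no site is placed at a single segment, exon or intron.

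Accessibility in Igh was uneven: 1 very wide site took up most of the subpart named for Ighm, Eμ and the J segments, a compact block lay in the 3′ regulatory region, and the D and V segments held narrow, scattered sites. The 50 sites together covered 40.6 kb, or 1.45% of the locus, against 1.77% of the rest of the autosomes and 1.38% of the rest of chromosome 12. The locus had 1.78 sites per 100 kb (1.32 to 2.35). That was 0.81 times the density of the rest of the autosomes (0.60 to 1.07), which had 2.20 per 100 kb, and 1.03 times that of the rest of chromosome 12 (0.76 to 1.35). Both intervals include equal density. Among 844 windows of the same length laid end to end over the autosomes outside Igh, 46.6% held at least 50 sites. The locus as a whole was therefore near the middle of these windows, and its subparts were not alike.

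**Figure D1:**
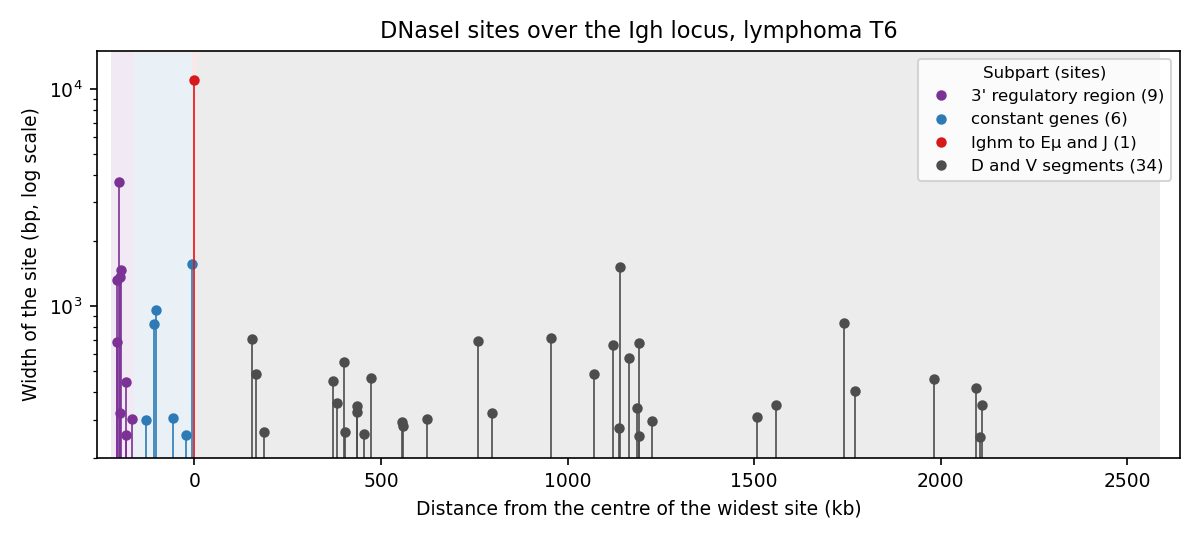
Width of each of the 50 sites (bp, log scale) against distance from the centre of the widest site (kb), with the V segments to the right; colours and shading mark the subparts. The site of 11025 bp at 0 stands above all others, and the sites of the D and V segments lie between 249 and 1512 bp.

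The subpart from Ighm to the J segments held a single site of 11025 bp (114656655 to 114667679), the widest of the whole list. It took up 27.1% of all covered bases of the locus in 0.392% of its length, and it was 2.96 times as wide as the second widest site of Igh. Of its bases, 345 lay below the lower edge of the subpart, on the side of the constant genes. The other 10680 covered 82.2% of the subpart's 13 kb. The 2321 bases up to the upper edge of the subpart were outside the site. Where Ighm, Eμ and the J segments lie within the subpart was not analysed here. Of 184539 autosomal windows of 13 kb outside Igh, 2 were covered to the same extent or more, and 83.3% held no site. These windows started at fixed steps and can cut a wide site, while the subpart held most of one. The number of sites says little here, since 1 site in 13 kb gives 7.69 per 100 kb with an interval of 0.195 to 42.9.

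A second wide site stood directly beside it. The stretch from 114654920 to 114656477, 1558 bp wide, ended 177 bp before the start of the widest site and was the third widest of Igh. Both together formed an almost unbroken accessible stretch of 12.76 kb, of which 98.6% was covered. On the other side nothing followed for 149.1 kb. The Eμ-myc transgene carries the Eμ enhancer as well. In the list its copies and the chromosomal enhancer cannot be told apart, and the number of copies was not analysed here. Repeated sequence at the switch region and the input signal were not analysed here either.

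The 3′ regulatory region was the densest of the subparts by number of sites. Its 9 sites in 60 kb came to 15 per 100 kb (6.86 to 28.5), 6.83 times the rest of the autosomes (3.12 to 13.0), and they covered 16.4% of its length. Among 39976 autosomal windows of 60 kb, 2.67% held 9 or more sites and 1.16% had as large a covered share. Most of the coverage came from a block of 6 sites over 13.3 kb (114454047 to 114467358), which held 89.8% of the covered bases of the subpart. Gaps inside this block ran from 496 to 1380 bp.

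Within the block, the widest site covered 3721 bp (114457955 to 114461675), second in Igh; 0.23% of all listed sites were at least that wide. On its low side lay sites of 682 bp (114454047 to 114454728) and 1313 bp (114455324 to 114456636). On its high side, towards the constant genes, followed sites of 1361 bp (114462172 to 114463532), 323 bp (114464190 to 114464512) and 1466 bp (114465893 to 114467358). In this block 5 of the 6 sites were thus wider than the list's median of 663 bp. The remaining 3 sites of the subpart were narrow and apart from it. A pair of 255 and 448 bp (114479035 to 114479289 and 114479361 to 114479808) stood 11.7 kb further on, with 71 bp between its members. A lone site of 301 bp (114495310 to 114495610) came after another 15.5 kb, the last below the edge set for the constant genes subpart.

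The dense block did not stand alone on that side of the chromosome. The 500 kb directly below the locus held 67 sites, 13.4 per 100 kb (10.4 to 17.0), which overlaps the interval of the 3′ regulatory region, and sites covered 10.9% of it. The flank included a site of 5214 bp (114383791 to 114389004), wider than any site of Igh other than the widest. By contrast, the 500 kb above the locus, beyond the V segments, held 9 sites, 1.8 per 100 kb (0.82 to 3.4). The nearest sites to the lower edge were 682 bp wide inside it, 14.0 kb from the edge, and 1098 bp wide outside it (114425483 to 114426580), 13.4 kb from the edge.

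**Figure D2:**
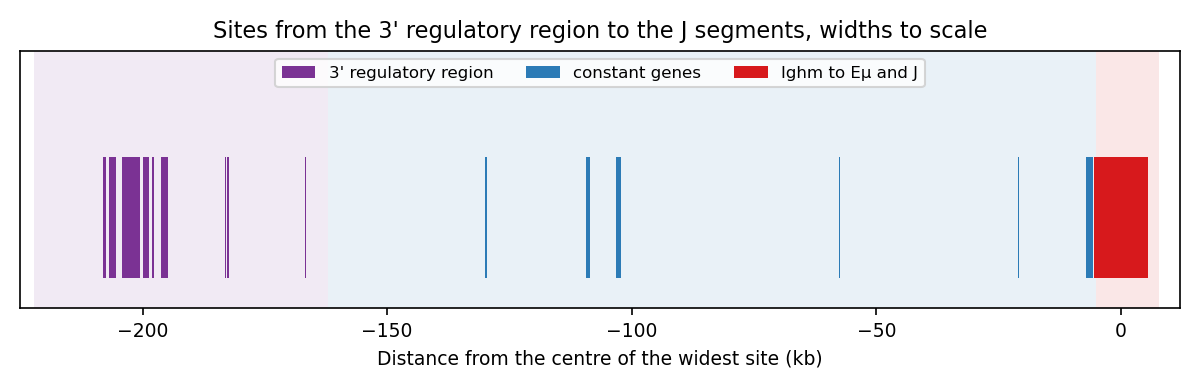
The 16 sites of the 3′ regulatory region, the constant genes and the Ighm to J part, drawn to scale along the distance from the centre of the widest site (kb); shading marks the subparts. The block of 6 sites lies at the far left, and the widest site and its neighbour meet near 0.

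The constant genes, which encode the parts of the antibody that set its class, held 6 sites below the Ighm to J subpart. In their 157 kb this came to 3.82 per 100 kb (1.40 to 8.32), and sites covered 4.55 kb. That was 1.74 times the density of the rest of the autosomes (0.64 to 3.79), an interval that includes equal density. Of 15269 windows of this length, 23.4% held 6 or more sites and 50.9% held none, with a median of 0 sites. The 1558-bp neighbour of the widest site was 1 of the 6 and the only wide one (over 1500 bp). Others, of 826 bp (114552713 to 114553538) and 958 bp (114558957 to 114559914), lay 5.42 kb apart, nearer to the lower edge of the subpart than to the upper. The remaining sites were narrow and isolated, at 299 bp (114532211 to 114532509), 306 bp (114604430 to 114604735) and 255 bp (114641007 to 114641261). Gaps next to these 3 ran from 13.7 to 44.5 kb.

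**Figure D3:**
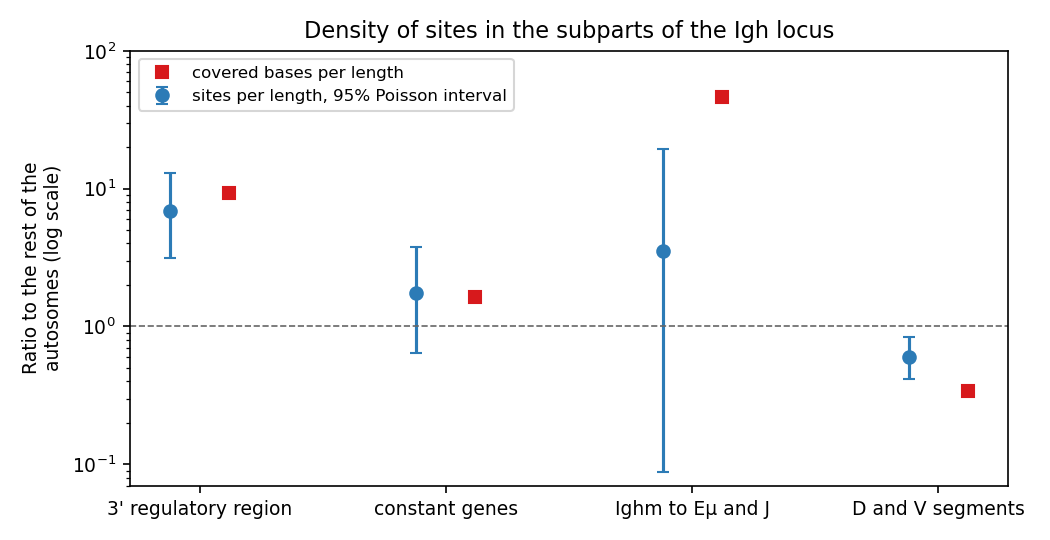
Density of sites (circles, with 95% Poisson intervals) and of covered bases (squares) in each subpart, as a ratio to the rest of the autosomes (log scale); the dashed line marks equality. By sites the 3′ regulatory region lies at 6.83 and the D and V segments at 0.60; by covered bases the Ighm to J part lies highest, at 46.3.

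The D and V segments, the store of variable parts from which an antibody is joined, made up most of the locus. They held most of its sites and 38.2% of its covered bases, the largest share of any subpart, though few covered bases per length. The 34 sites in 2.58 Mb came to 1.32 per 100 kb (0.91 to 1.84), or 0.60 times the rest of the autosomes (0.42 to 0.84). Against the rest of chromosome 12 the ratio was 0.76 (0.53 to 1.06), which includes equal density. By covered bases the ratio was 0.34 to the rest of the autosomes and 0.44 to the rest of chromosome 12, since 0.602% of this subpart was covered. The mean of the autosomes is pulled up by dense regions. Among 919 autosomal windows of 2.58 Mb the median was 41 sites, and 45.9% held no more than 34. By covered bases, 33.4% of these windows had no more.

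Sites of the D and V segments were narrow. Their median width was 355 bp (310 to 485), against 663 bp (658 to 668) in the 53543 sites of the rest of the list. In the 16 sites of the other subparts it was 754 bp (301 to 1466), an interval that includes that of the D and V segments. Of those 16 sites, 3 were under 300 bp, or 18.8% (4.05 to 45.6%). Narrow sites, under 400 bp, were 18 of 34, or 52.9% (35.1 to 70.2%), against 30.5% (30.1 to 30.8%) in the rest of the list. Under 300 bp there were 9 of 34, or 26.5% (12.9 to 44.4%). The rest of the list had 15.4% under 300 bp, which lies inside that interval. Sites wider than the list's median were 7 of 34, or 20.6% (8.70 to 37.9%). Wide sites, over 1500 bp, were 1 of 34, or 2.94% (0.074 to 15.3%). The rest of the list had 11.4%, which lies inside that interval. In 356 autosomal windows of the same length with 1 to 34 sites, the median width was 607 bp (590 to 628) and 33.8% of the sites were narrow (32.5 to 35.1%). Of the 223 such windows with 10 or more sites, 3 had a median width as low as that of the D and V segments.

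**Figure D4:**
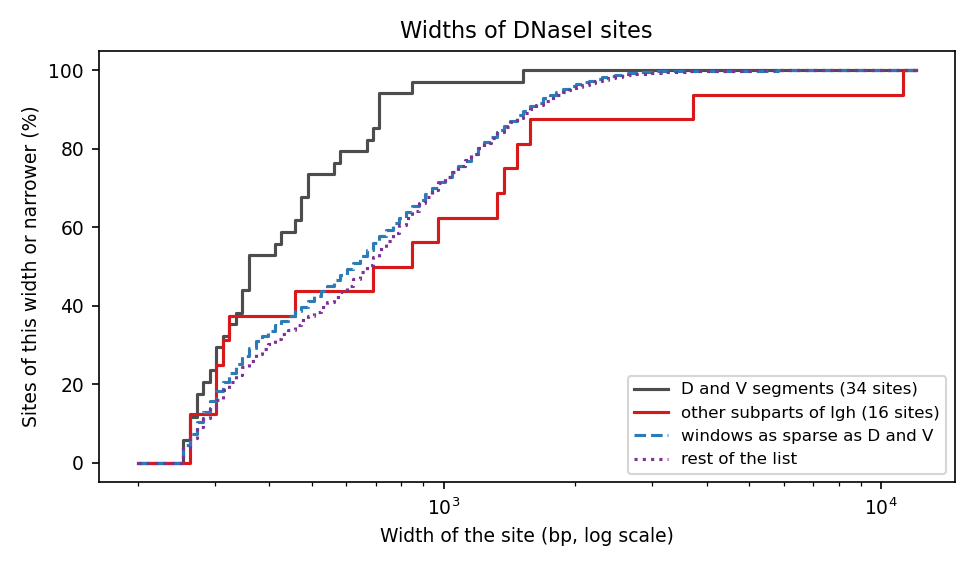
Share of sites (%) at or below each width (bp, log scale) for the D and V segments, the other subparts of Igh, autosomal windows with no more sites than the D and V segments, and the rest of the list. The D and V curve, with a median of 355 bp, rises before the curves of the sparse windows and the rest of the list. The latter (medians 607 and 663 bp) lie close together. The curve of the other subparts crosses the D and V curve at widths up to 324 bp and lies below it from 335 to 10823 bp.

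The widest site among the D and V segments covered 1512 bp (115800880 to 115802391) and lay 1139 kb from the centre of the widest site of Igh. It was followed by sites of 835 bp (116403538 to 116404372), 712 bp (115616869 to 115617580), 709 bp (114816779 to 114817487) and 692 bp (115420825 to 115421516). Sites of 674 bp (115853281 to 115853954), 665 bp (115783366 to 115784030) and 574 bp (115825287 to 115825860) came next, all in the same 100-kb bin as the widest. The 10 widest ended with 553 bp (115064222 to 115064774) and 486 bp (114826174 to 114826659). Of these 10, only the 835-bp site lay beyond the bin of the 1512-bp site on the far V side. The others outside that bin lay between it and the J side.

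Along the D and V segments, sites were thinly spread, with some denser stretches. The 5 consecutive stretches of 500 kb, starting from the J side, held 11, 6, 9, 5 and 3 sites, and the last 80 kb held 0. Exact Poisson intervals of these counts overlap, from 5.49 to 19.7 for the highest and 0.619 to 8.77 for the lowest of the 500-kb stretches. Of 25 full bins of 100 kb, 10 (40%) held no site, against 56.6% of 23982 such windows of the autosomes outside Igh. The busiest bin, 115770000 to 115870000, held 7 sites, a number reached by 12.2% of the autosomal windows. It included the 1512-bp site and 3 others of the 10 widest. Next came the adjoining bins 114970000 to 115070000 and 115070000 to 115170000, with 4 sites each. Together with the busiest bin they held 15 sites, 44.1% of those in the subpart.

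**Figure D5:**
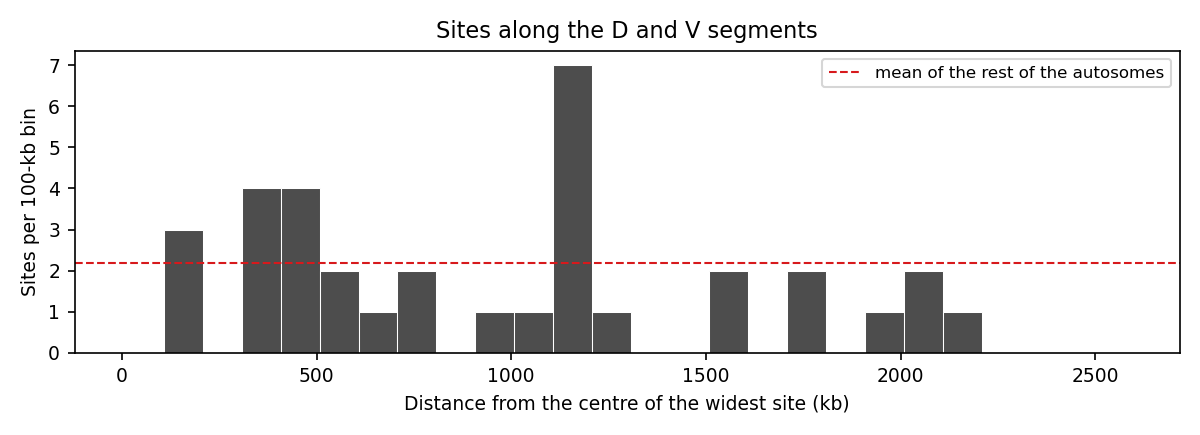
Number of sites per 100-kb bin along the D and V segments (the last bin is 80 kb), against distance from the centre of the widest site (kb); the dashed line is the mean of the rest of the autosomes, 2.20 per 100 kb. The busiest bin holds 7 sites, and the 4 bins at the far V end hold none.

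Both ends of the D and V segments were without sites. At the J side, the 149.1 kb after the widest site (114667680 to 114816778) held none, and 146.8 kb of that lay inside the subpart. In the gene order the D segments come after the J segments and the V segments after those; which of them the stretch holds was not analysed here. The first site beyond it was the one of 709 bp. At the far V end no site was listed for 513.6 kb (116771892 to 117285449), of which 478.1 kb lay within the locus; this was the longest such stretch. It ran from a site of 351 bp (116771541 to 116771891), the last of the locus, to one of 1031 bp (117285450 to 117286480) outside it, 35.5 kb above the upper edge. Inside the subpart the longest were 281.4 kb (115889192 to 116170621) and 210.2 kb (116432332 to 116642557).

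Site-free stretches of this length were not rare in the list. Of 52722 gaps between neighbouring sites on the autosomes, 3.93% were at least as long as the one at the J side and 1.48% as long as the one at the far V end. Joining V, D and J segments deletes the DNA between them in B cells. A deleted stretch and an intact one without accessible chromatin cannot be told apart in the list. The V segments resemble each other in sequence, and the handling of reads that match several of them is not stated in the labels.

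Most sites of the D and V segments stood alone, and some came as close pairs. The median gap between neighbours was 22.9 kb, against 6.99 kb over the autosomes. Even so, 10 of 34 sites, 29.4% (15.1 to 47.5%), had a neighbour within 500 bp, close to the 31.4% of the rest of the list. These 10 formed 5 pairs with 56 to 236 bp between their members. In 1 of these pairs, the 1512-bp site lay 74 bp from one of 273 bp (115800533 to 115800805). With sites at most 10 kb apart joined, the whole locus fell into 33 groups, of which 22 were single sites. The largest was the block of 6 in the 3′ regulatory region. The share of single sites over the rest of the list at this distance was not analysed here.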

How the data were processed

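The authors deposited 1 list of DNaseI sites with 3 columns and no header. BWA 0.6.2, SAMtools and build mm9 are named in the submitters' processing notes. For the peak calling, its cutoff, any filters and the role of the input, the method is not given in the sources used here. Starts were converted to count from 1. Members and subparts were chosen by position with earlier results of these data known, and the edges were not checked against an mm9 annotation. Densities are sites by midpoint per length; covered bases were clipped at edges. Autosome lengths ran from first to last site. Windows of equal length were laid end to end and are a description. Intervals for counts are exact Poisson, for shares exact (Clopper-Pearson) and for medians from order statistics, all at 95%; intervals of ratios treat the rest as fixed. Neighbouring sites are not independent, so the true uncertainty is larger. Every site of the 3 smaller subparts is named. In the D and V segments the 10 widest, the first and last sites and those bordering the longest stretch without a site are named, as are the nearest sites outside each edge; the 5214-bp site of the flank was named after its width was seen. The flanks, the sparse windows, the 500-bp neighbours and the width classes were chosen after seeing the data, as were the shifted windows. The code was tested on simulated sites: all 39 planted sites were counted in their subpart. None of the planted sites crossed an edge of a subpart. Python 3.11.15, numpy 2.4.6, scipy 1.17.1 and matplotlib 3.10.9 were used.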

Additional observations from a re-analysis of the deposited data

How the results depend on the processing

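The alternatives gave 27 values. Of these, 20 lay inside the counting interval of the reported value, or within 1.5 times of it for numbers, widths and stretches, and 7 moved by more; the wide intervals of the small subparts allow large moves. Most moves came from keeping only sites wider than the list's median, the nearest substitute for a stricter threshold. It left 16 of the 50 sites and 0.271 sites per 100 kb in the D and V segments. By construction this cutoff removed about as many sites as it kept, and 49.97% of the rest of the list passed it. Lower counts, fewer sites per 100 kb and longer stretches without a site therefore follow in part from the cutoff itself. The density ratio to the rest of the autosomes was then 0.517 for the locus and 0.247 for the D and V segments, and the longest stretch without a site was 881.1 kb. By covered bases the ratio of the D and V segments was 0.340. For the whole locus the ratio by covered bases was 0.816 with the widest site and 0.594 without it, an alternative added after seeing the data. Joining sites at most 1 kb apart left 40 sites and 8.33 per 100 kb in the 3′ regulatory region. With the windows laid from another starting point (0.5 of a window further on), there was 1 window of 13 kb covered as fully as the Ighm to J part, in place of 2. No paired analysis was possible because there was 1 library. Depth is unknown, and a threshold by signal could not be tried.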
